A study of Mus musculus with 20 samples.

Results

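Bipolar cells are the interneurons that carry the signal of rods and cones to the inner retina, and the 9 genes described here encode parts of the machinery with which they read the photoreceptor's glutamate. The genes Grm6, Trpm1, Gng13, Pcp2, Prkca, Cabp5, Grik1, Gnao1 and Neto1 were listed by symbol, with earlier results of these data known. All 9 were found among the 23260 genes of the deposited count table. They were followed in the cells that the authors annotated as bipolar, 4530 of 79009 cells, and set against the other annotated types.

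ON bipolar cells depolarise when light lowers glutamate. Their receptor, the metabotropic glutamate receptor mGluR6 (Grm6), acts through a G protein with the alpha subunit encoded by Gnao1 and the gamma subunit encoded by Gng13, and this closes the cation channel TRPM1. OFF bipolar cells instead use ionotropic receptors that glutamate opens directly, among them the kainate receptor subunit encoded by Grik1; Neto1 encodes an accessory protein of kainate receptors. Pcp2 encodes a modulator of G protein signalling found in ON bipolar cells, Prkca encodes protein kinase C alpha, the usual marker of rod bipolar cells, and Cabp5 encodes a calcium-binding protein of rod bipolar and some cone bipolar cells, ON and OFF.

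The cells came from retinal explants of CD1 mice that were electroporated with plasmids, dissociated with papain and sorted for GFP. At each of 2 ages, postnatal day 2 (P2) and day 5 (P5), there were 4 control libraries (a GFP construct alone), 2 libraries with MEIS1, 2 with MEIS2 and 2 with a 50:50 combination of both; MEIS1 and MEIS2 are homeodomain transcription factors. All groups were electroporated, so none shows untouched tissue, and nothing in the labels ties a library to separate animals: p-values below measure the spread between libraries, which may be partly technical. The labels conflict in places. A treatment tag names MEIS1 for all P2 libraries with 1 factor and MEIS2 for all P5 libraries with 1 factor, the series text also names NR2F1 and NR2F2 constructs, and the barcode prefixes of some libraries do not match their sample name; the titles were followed. In P5 bipolar cells the titles of the MEIS1 and MEIS2 libraries matched the introduced gene. Meis1 stood at 945.8 and 991 CPM (UMI counts of a gene scaled to a common total of all genes) in the MEIS1 libraries against 53.7 to 83.2 in the controls. Meis2 stood at 543 and 567 CPM in the MEIS2 libraries against 71.4 to 179. This comparison does not cover the combination libraries.

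Libraries held 1625 to 17739 cells and 2376875 to 141540352 unique molecular identifiers (UMIs, each standing for 1 captured transcript molecule). Of the bipolar cells, 4392 came from the 10 P5 libraries, with 53 to 964 per library, and 138 from the 10 P2 libraries. At P2 bipolar cells made up 0.171% to 0.661% of a library. At P5 the share was 7.58% to 22.9% in 9 libraries and 1.18% in P5 combination 1. That library stood apart in other ways: it held no Grm6 UMI among 51751194 UMIs, as in every P2 library, and in its rods Sag, which encodes rod arrestin, stood at 1515 CPM against 2771 to 6001 in rods of the other P5 libraries and 188 to 1202 at P2. Pde6b, another rod gene, was within the P5 range there, at 238 CPM against 217 to 521 in the other P5 libraries and 30.9 to 95.6 at P2. Whether its label is right was not tested. The tests for any MEIS construct and for the combination, and the detection shares, are therefore given with and without it; medians over libraries of other cell types include it unless stated. Few barcodes were shared: 744 of 78261 occurred in more than 1 library, and no 2 libraries shared more than 16.

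At P5 the annotated bipolar cells were high in general bipolar markers, which the annotation may itself have used. Summed over 6 general bipolar genes (Otx2, Scgn, Lhx4, Isl1, Prdm8 and Gsg1), bipolar cells of the controls stood at 2161 to 2541 CPM and rods at 590 to 1471 CPM. P5 combination 1 stood at 1891 CPM in its 53 bipolar cells, where 5 Müller glia genes summed to 748 CPM against 108 to 406 in the control bipolar cells. Apoe alone gave 633 of these 748 CPM, and Rlbp1 and Aqp4 were at 0; the part of these genes in its values was not tested. At P2 the annotation was weaker: the 44 bipolar cells of P2 control 1 summed to 1466 CPM, within the range of P2 control rods (1015 to 2039), and 6 amacrine genes summed to 276 CPM there against 11.6 to 33.3 in P5 control bipolar cells. The part of these other markers in the P2 values was not tested.

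The sequences just before 3 start sites are shown because they mark how the members differ in a motif of photoreceptor and bipolar homeodomain factors such as OTX2 and CRX, TAATCC. RefSeq promoters (GRCm38.p6) were found for 7 of the 9 members, and the 250 bases before each start were searched on both strands for TAATCC, for the paired-type homeodomain motif TAATTA, the MEIS-type motif TGACAG and the E-box CAGATG. The first and the second of these motifs open with the same letters. Matches are in capitals.

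Cabp5, chr7:13397905-13398154, plus strand: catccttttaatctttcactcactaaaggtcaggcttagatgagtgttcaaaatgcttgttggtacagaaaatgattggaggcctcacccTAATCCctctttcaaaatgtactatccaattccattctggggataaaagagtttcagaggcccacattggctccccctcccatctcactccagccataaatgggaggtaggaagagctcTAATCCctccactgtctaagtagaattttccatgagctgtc

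Trpm1, chr7:64153585-64153834, plus strand: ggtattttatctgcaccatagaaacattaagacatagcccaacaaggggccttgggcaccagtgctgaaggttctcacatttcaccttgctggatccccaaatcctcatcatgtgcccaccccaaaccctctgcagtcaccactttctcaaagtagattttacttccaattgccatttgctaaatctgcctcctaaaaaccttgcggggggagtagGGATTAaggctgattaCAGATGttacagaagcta

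Grm6, chr11:50850435-50850684, plus strand: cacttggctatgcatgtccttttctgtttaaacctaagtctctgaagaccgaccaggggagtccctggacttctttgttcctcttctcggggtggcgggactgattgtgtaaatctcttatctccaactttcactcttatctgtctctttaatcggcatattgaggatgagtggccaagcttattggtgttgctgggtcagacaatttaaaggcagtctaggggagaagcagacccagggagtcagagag

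Cabp5 held TAATCC at 2 places, beginning 160 and 41 bases before the start. Trpm1 held it once on the other strand, as GGATTA, 34 bases before its first start, with CAGATG 18 bases before; the window of its second listed start held none of the 4 motifs. Grm6 held none of the 4, nor did Gnao1, Prkca and Gng13, and Pcp2 held CAGATG or TAATTA in 3 of its 4 listed windows. Of 32851 mouse promoters cut the same way, 6.25% held TAATCC, 4.84% TAATTA, 15.9% TGACAG and 14.4% CAGATG. A match is a description of letters and not a measured binding site.

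In the annotation used for coordinates (GENCODE vM21, mm10), Grm6 spans chr11:50850685-50866208, Trpm1 chr7:64153835-64269775 and Cabp5 chr7:13398132-13408887, all on the plus strand. Gng13 lies at chr17:25717171-25719406 and Gnao1 at chr8:93809966-93969388 on the plus strand. Pcp2 lies at chr8:3623371-3625545, Prkca at chr11:107933387-108343928 and Grik1 at chr16:87895900-88290265 on the minus strand. Counts were per gene, so exons, isoforms and untranslated regions were not told apart.

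Among the ON members at P5, Grm6 was high in bipolar cells and near 0 elsewhere. In bipolar cells it stood at 407, 728, 448 and 522 CPM in control libraries 1 to 4, at 589 and 694 with MEIS1, at 441 and 542 with MEIS2 and at 0 and 227 with the combination. The single-factor libraries lay within the control range, and both combination libraries lay below every control. The next types were neurogenic cells with a median of 2.01 CPM, rods with 1.48 and amacrine cells with 1.36, and these 3 did not differ beyond their spread. Without P5 combination 1, rods reached a median of 0.345% of the bipolar level in the same library and neurogenic cells 0.467%, below bipolar cells in 9 of 9 libraries. Since the types were annotated from the same counts, the order of types is a description throughout and was not tested.

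Trpm1, the channel gene, read 131, 326, 58.3 and 159 CPM in control bipolar cells 1 to 4, 201 and 158 with MEIS1, 149 and 104 with MEIS2, and 0 and 23.7 with the combination. Its controls alone spanned more than the distance between the control and single-factor means. Müller glia followed with a median of 10.4 CPM over 3 libraries and progenitors with 2.47 over 10.

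Gng13, the gamma subunit, read 174, 200, 39.9 and 89.7 CPM in the controls, 82.3 and 71.0 with MEIS1, 38.8 and 46.3 with MEIS2, and 5.45 and 21.6 with the combination. The MEIS2 libraries lay around the lowest control, and both combination libraries lay below all 4. In each other annotated type with 20 or more cells in at least 3 libraries, the median was at most 2.13 CPM. In amacrine cells the median was 0.

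Pcp2 was the ON member least restricted to bipolar cells. Its bipolar values were 257, 575, 49.6 and 133 CPM in the controls, 254 and 239 with MEIS1, 177 and 225 with MEIS2, and 10.9 and 35.1 with the combination. Rods had a median of 139 CPM against 201 in bipolar cells. Without P5 combination 1 rods stood at a median of 64.9% of the bipolar level, and they were below bipolar cells in 6 of 9 libraries.

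Prkca was high in bipolar cells and present in every type. Its bipolar values were 631, 1495, 363 and 904 CPM in the controls, 1292 and 1250 with MEIS1, 1175 and 882 with MEIS2, and 13.6 and 215 with the combination. The single-factor libraries lay inside the wide control range and the combination libraries below it. The other types followed closely on one another, with medians of 191 CPM in rods, 151 in progenitors, 140 in amacrine cells and 104 in neurogenic cells, and each neighbour in this order overlapped the next.

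Grik1, the OFF receptor subunit, had another distribution over libraries. It read 363, 599, 1439 and 1123 CPM in the controls, 586 and 726 with MEIS1, 1035 and 1325 with MEIS2, and 64.0 and 1350.4 with the combination. Controls 3 and 4, both MEIS2 libraries and P5 combination 2 were high; controls 1 and 2 and both MEIS1 libraries were lower. Neurogenic cells (48.8 CPM) and amacrine cells (46.6 CPM) came next and did not differ beyond their spread, and rods stood at 7.46 CPM.

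Neto1 was low everywhere. Its bipolar values were 6.66, 16.8, 7.04 and 8.32 CPM in the controls, 7.82 and 3.49 with MEIS1, 6.64 and 8.26 with MEIS2, and 0 and 4.80 with the combination. Amacrine cells, with a median of 4.72 CPM, were below bipolar cells in 5 of 9 libraries, so the first 2 places in its order do not differ beyond their spread.

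Cabp5 and Gnao1 belong to no single class. Cabp5 read 132, 322, 86.7 and 144 CPM in the controls, 197 and 188 with MEIS1, 136 and 168 with MEIS2, and 58.6 and 102 with the combination; no bipolar library overlapped any neurogenic library, the next type, at a median of 16.8 CPM. Gnao1, the alpha subunit shared with many neurons, read 477, 572, 328 and 559 CPM in the controls, 527 and 537 with MEIS1, 551 and 510 with MEIS2, and 91.3 and 262 with the combination. Amacrine cells followed among the types with 10 libraries, at a median of 148 CPM.

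**Figure D1:**
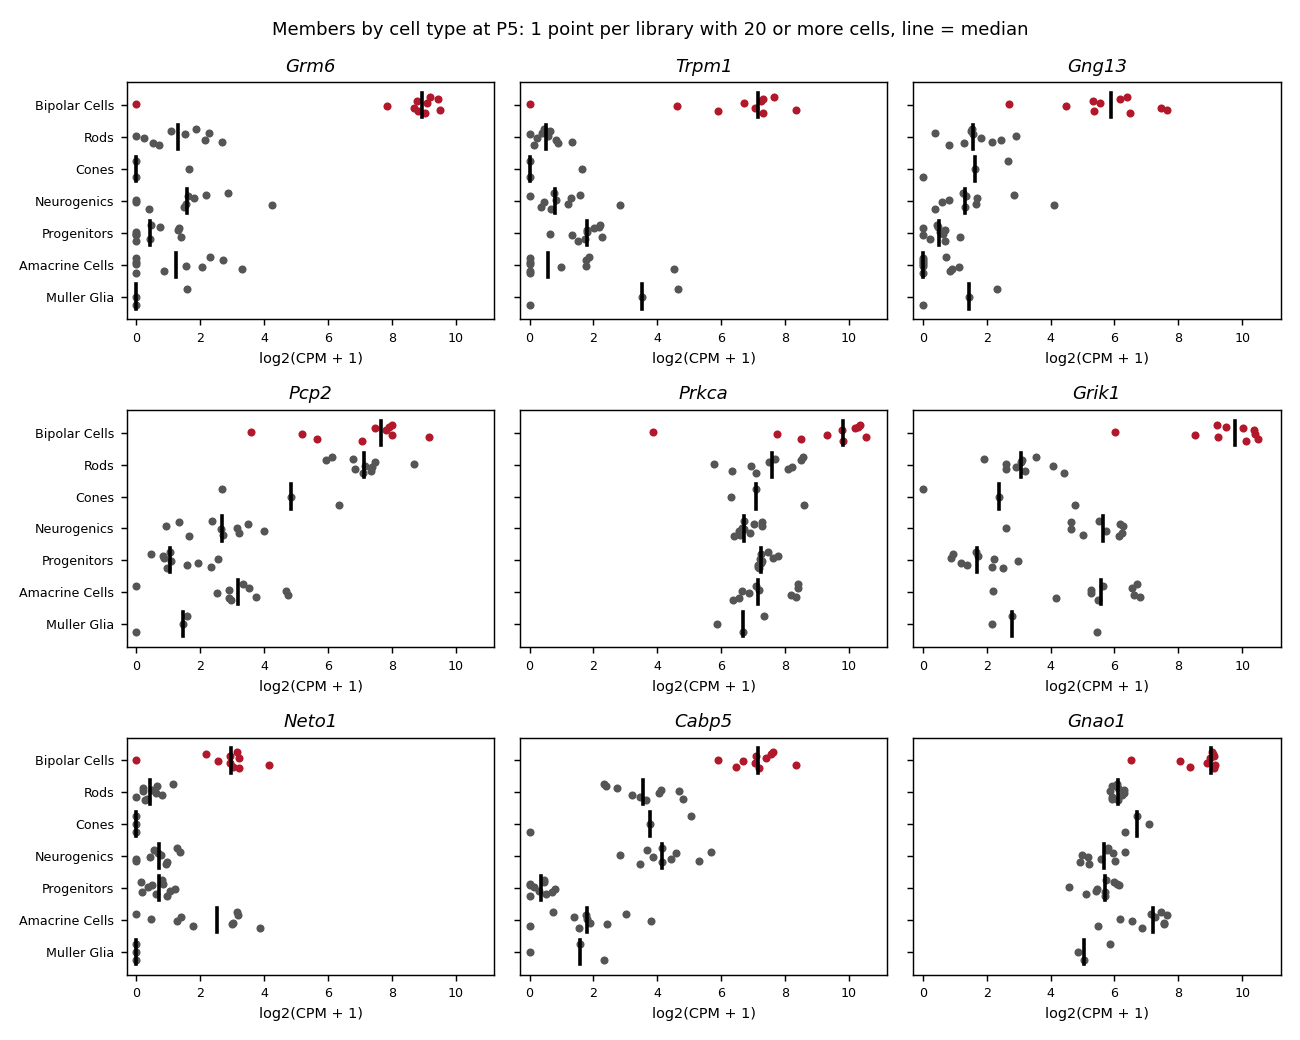
Level of each member by cell type at P5, as log2(CPM + 1) on the horizontal axis, with 1 point per library that held 20 or more cells of the type and a line at the median. Bipolar cells (red) hold the highest median for all 9 genes; the bipolar point at the far left for Grm6, Trpm1 and Neto1 is P5 combination 1, at 0.

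The balance of ON and OFF receptor genes differed between libraries of the same group. The log2 ratio of Grm6 to Grik1 CPM in bipolar cells was 0.17, 0.28, -1.68 and -1.10 in control libraries 1 to 4, 0.01 and -0.06 with MEIS1, -1.23 and -1.29 with MEIS2, and -2.57 in P5 combination 2. The controls thus covered the values of all 4 single-factor libraries, and P5 combination 2 lay below them.

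**Figure D2:**
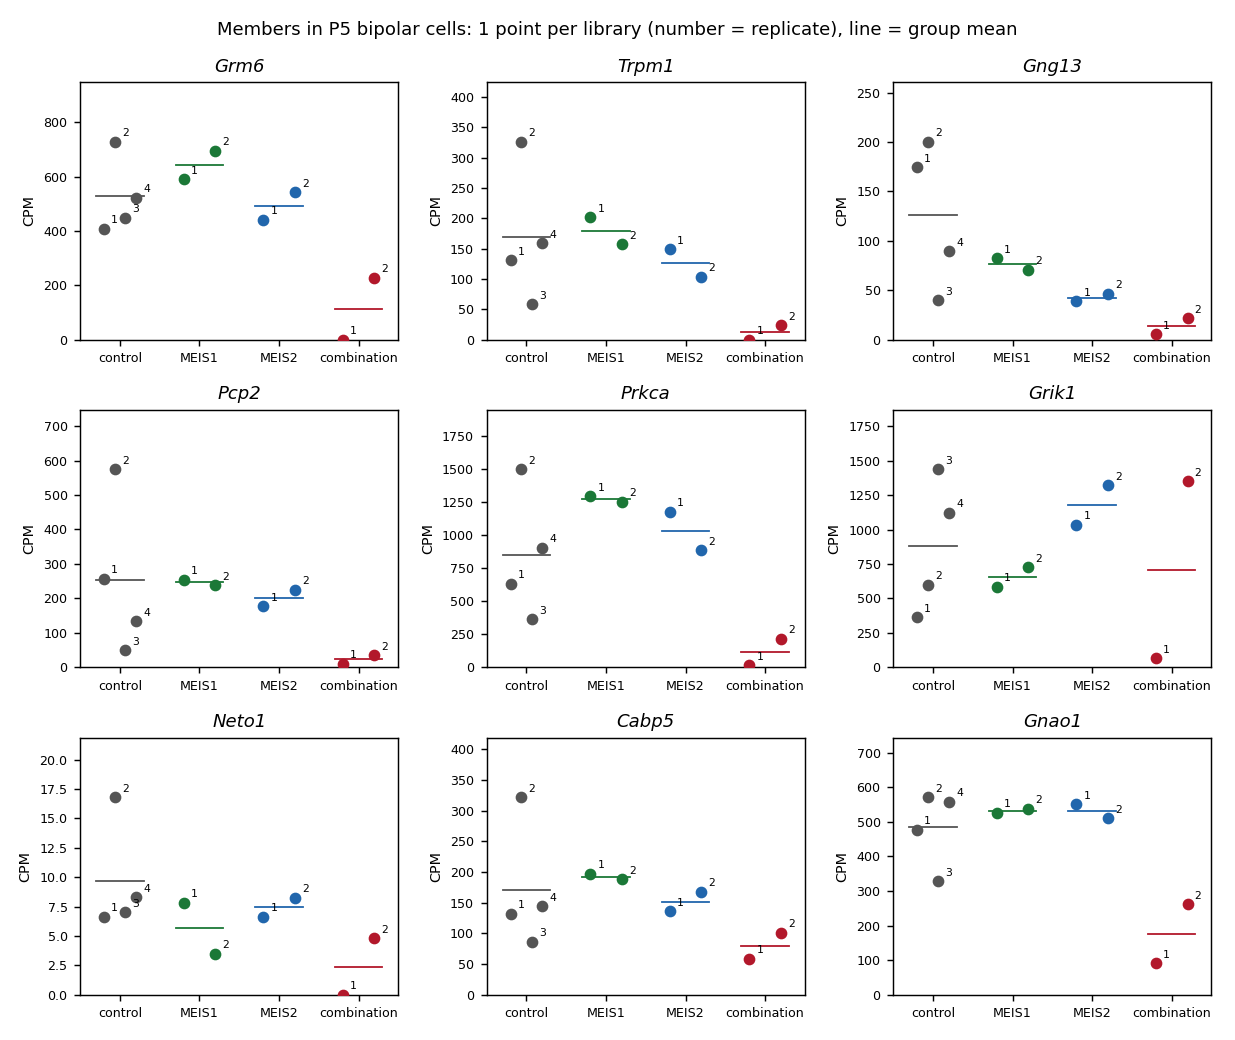
CPM of each member in P5 bipolar cells, with 1 point per library numbered by replicate and a line at the group mean. Both combination libraries lie below all 4 controls for Grm6, Trpm1, Gng13, Pcp2, Prkca, Gnao1 and Neto1, whereas Grik1 is at 64.0 in P5 combination 1 and at 1350.4 in P5 combination 2.

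In the 4 edgeR quasi-likelihood comparisons with control over 14747 genes, none of the 9 members passed a Benjamini-Hochberg adjusted p of 0.05. The background was close to empty as well: 0.00678% of genes (1 gene) passed for any MEIS construct, 0% for MEIS1, 0.0136% (2 genes) for MEIS2 and 0% for the combination. At an unadjusted p under 0.05 the genome-wide shares were 3.82%, 1.61%, 5.57% and 11.4%, or 563, 237, 822 and 1686 genes, and DESeq2 called 12, 1, 9 and 252 genes at an adjusted p of 0.05. Pknox1, a TALE homeodomain gene related to the MEIS genes, was called in both contrasts. It was higher with any MEIS construct (controls 28.7 to 37.5 CPM, the 5 MEIS libraries without P5 combination 1 at 51.3 to 83.1), with a log2 fold change of 1.10 (SE 0.12, edgeR adjusted p = 0.0481), and narrowly missed the threshold without P5 combination 1 (1.06, edgeR adjusted p = 0.0505). With MEIS2 the log2 fold change of Pknox1 was 1.32 (SE 0.15, edgeR adjusted p = 0.0315). A fit with the replicate number as a block called 0 genes for MEIS2. The number of genes called ranged from 0 to 44 for any MEIS construct when 1 library was left out (44 without P5 combination 2) and from 0 to 2 for MEIS2.

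With the 3 construct groups averaged and set against control (any MEIS construct), all 9 members had a log2 fold change below 0, with a median of -0.66 against -0.04 over all genes. The lowest was Gng13 at -1.77 (SE 0.40, unadjusted p = 0.00119, edgeR adjusted p = 1.00), followed by Trpm1 at -1.26 (SE 0.48) and Pcp2 at -1.24 (SE 0.53). Gng13, Trpm1, Pcp2 and Neto1, 4 of 9 members, had an unadjusted p under 0.05, against 3.82% of all genes. Neto1 was at -0.93, Prkca at -0.66, Gnao1 at -0.40 and Cabp5 at -0.37. Without P5 combination 1 the values were -1.63 for Gng13, -1.07 for Trpm1, -1.10 for Pcp2, -0.78 for Neto1, -0.39 for Prkca, -0.27 for Cabp5, -0.22 for Gnao1, -0.36 for Grm6 and 0.20 for Grik1. Grik1 thus changed sign, and Grm6, Prkca and Gnao1 moved by over 1.5 times. None passed there either (0.0068% of all genes did), 2 of 9 had an unadjusted p under 0.05 against 3.88% of all genes, and the members' median was -0.39. With the replicate number as a block, Gng13 passed (-2.35, edgeR adjusted p = 0.0435), as did 0.0136% of all genes. No construct library is numbered 3 or 4, so under the block the constructs are set against P5 controls 1 and 2 alone. For Gng13 these read 174 and 200 CPM, and controls 3 and 4 read 39.9 and 89.7.

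With 1 factor alone, the members' median log2 fold change was 0.10 with MEIS1 and -0.19 with MEIS2, against -0.02 over all genes in each. Grm6 was at 0.30 (95% interval -1.25 to 1.85) with MEIS1 and at -0.11 (-1.69 to 1.46) with MEIS2, intervals wide enough to hold a more than 2-fold change either way. Gng13 with MEIS2, at -1.59 (SE 0.57, unadjusted p = 0.0185, edgeR adjusted p = 0.824), was the 1 member with an unadjusted p under 0.05 in these 2 comparisons. Of all genes, 1.61% had such a p with MEIS1 and 5.57% with MEIS2.

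With the combination, the 9 log2 fold changes were all below 0 and 8 of 9 had an unadjusted p under 0.05, against the 11.4% of all genes given above; none passed after adjustment in this fit, which ignores the replicate number. In a fit with the replicate number as a block, Trpm1, Gng13 and Pcp2 passed (edgeR adjusted p = 0.0486, 0.0112 and 0.0112), as did 1.43% of all genes (211). That fit sets the combination against P5 controls 1 and 2 alone. For Pcp2 these read 257 and 575 CPM, and controls 3 and 4 read 49.6 and 133. Libraries numbered 1 had the higher mitochondrial share in P5 bipolar cells, with medians of 7.08% to 8.42% against 3.53% to 5.17% in those numbered 2. Trpm1 was at -3.46 (SE 0.82, edgeR adjusted p = 0.215), Pcp2 at -3.33 (SE 0.89), Gng13 at -3.01 (SE 0.68, edgeR adjusted p = 0.204), Prkca at -2.86 (SE 0.82) and Grm6 at -2.16 (SE 0.90). Gnao1 was at -1.46 (SE 0.37), Neto1 at -1.53, Cabp5 at -1.10 and Grik1 at -0.34 (SE 0.82). Where P5 combination 1 is at 0, it lay at least 129-fold lower than the control mean for Grm6 and at least 41.3-fold lower for Trpm1, taking 3 counts per library as the floor. Without that library, 1 combination library remained, assumed to vary like the other groups: Trpm1 was at -2.88, Pcp2 at -2.91, Gng13 at -2.60, Prkca at -2.03, Grm6 at -1.26, Gnao1 at -0.93 and Grik1 at 0.58, with edgeR adjusted p from 0.716 to 0.909 over the 9 members and 6 of 9 at an unadjusted p under 0.05, against 5.76% of all genes. Without P5 combination 2, so that P5 combination 1 stood alone, Prkca, Grik1 and Gnao1 passed (edgeR adjusted p = 0.00743, 0.0251 and 0.00492), as did 4.62% of all genes (680). For any MEIS construct 0.299% of all genes passed in that setting. Grm6 and Trpm1 have 0 UMIs in that lone library, so their tests are not given. Without P5 control 3, Gng13 passed at -3.30 (edgeR adjusted p = 0.0281), as did 0.26% of all genes.

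The 10 ON cascade partners chosen for comparison (Gnb3, Gnb5, Rgs7, Rgs11, Rgs7bp, Rgs9bp, Gpr179, Nyx, Lrit1 and Lrit3, which encode the other G protein subunits, the regulators that end the signal and the proteins that hold the receptor in place) included no gene that passed in any of the 4 comparisons. Their median log2 fold change was -0.55 with any MEIS construct and -1.37 with the combination, against -0.04 and -0.05 over all genes. For the combination 7 of 10 had an unadjusted p under 0.05, against 11.4% of all genes. Without P5 combination 1 the partners' medians were -0.38 and -1.03, against -0.03 over all genes in each. The 9 kainate and AMPA receptor partners (Grik2 to Grik5, Neto2 and Gria1 to Gria4) had medians of 0.01 and -1.27, and of 0.01 and -0.62 without P5 combination 1. With all libraries, 1 and 6 of 9 had an unadjusted p under 0.05, against 3.82% and 11.4% of all genes. Grik3 lay the other way with the combination, at 2.67 (unadjusted p = 0.000671, edgeR adjusted p = 0.204) and at 1.22 without P5 combination 1; it read 4.16 to 9.80 CPM in the controls and 85.8 and 17.1 in the combination libraries. In the general bipolar list, Scgn encodes the calcium-binding protein secretagogin. It read 99.0 to 155 CPM in the controls and 39.3 to 66.4 in the MEIS libraries without P5 combination 1, with no overlap. Its log2 fold change of -1.36 with any MEIS construct had an unadjusted edgeR p of 3.53e-05 and did not pass after adjustment. Of the 7 general bipolar genes, 2 lay above 0 for any MEIS construct without P5 combination 1, with a median of -0.19. Of the 7 cone bipolar genes tested, 2 had a log2 fold change above 0 for any MEIS construct, the median was -0.21, and 2 had an unadjusted p under 0.05, Lhx3 at -1.93 and Vsx1 at -1.16. Of the 6 rod bipolar genes none was above 0, the median was -0.46, and 2 had an unadjusted p under 0.05, among them Car8 at -2.57. In both lists these counts stand against 3.82% of all genes. Car8 read 8.97 to 61.4 CPM in the controls (median 29.9). In the MEIS libraries without P5 combination 1 it read 0.300 to 30.3 CPM (median 26.4), the lowest being P5 combination 2. Without P5 combination 1 the log2 fold changes were -1.26 for Scgn, -1.76 for Lhx3, -0.94 for Vsx1 and -2.49 for Car8. The medians of the cone and rod bipolar lists were then -0.23 and -0.32.

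Onset of the members between P2 and P5 differed by gene. Grm6 had 0 UMIs in all 45253 P2 cells, 335047042 UMIs in 10 libraries, which allows at most 0.00895 CPM over the group. Trpm1 had 123 UMIs there, Neto1 485, Cabp5 762, Gng13 1064 and Grik1 3625. Pcp2 with 16480, Gnao1 with 23411 and Prkca with 35020 UMIs were well represented at P2, over cells of all types.

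In the 138 P2 bipolar cells pooled over 10 libraries (1141779 UMIs), Grm6, Trpm1 and Neto1 had 0 UMIs, a limit of 2.63 CPM. P5 control bipolar cells were at least 208-fold higher for Grm6, at least 70.0-fold for Trpm1 and at least 4.0-fold for Neto1, taking 3 counts over the P2 group as the floor; without P5 control 2 the bound for Trpm1 was 41.8-fold. Gng13 had 2 UMIs and Pcp2 8. Prkca stood at 77.9 CPM (exact Poisson 95% interval 62.6 to 95.9), Gnao1 at 114 (95.1 to 135), Grik1 at 28.0 (19.2 to 39.6) and Cabp5 at 16.6 (10.0 to 26.0); these intervals cover counting error only. Of the 32 Grik1 UMIs, 28 came from the 8 libraries with under 20 bipolar cells, and 4 from P2 control 1 and P2 combination 1, which held 66 of the cells. Other P2 types had like Grik1 levels, with a median of 11.3 CPM in rods (up to 57.3) and 17.8 in amacrine cells (up to 66.3). Grm6 and Trpm1 were not detected in P2 bipolar cells at this depth. These P2 cells carried amacrine markers as stated above, and in P2 control 1 the doublet caller Scrublet marked 47.7% of them; the part of either was not tested.

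Since only 1 P2 control library held 20 or more bipolar cells, ages were tested in 2 other types, chosen after that was seen. In control cells annotated as Neurogenics (neurogenic cells), 9.27% of 13745 genes passed between P5 and P2 (917 genes or 6.67% higher, 357 or 2.6% lower), and 7 members passed the filter on low counts (2.18 CPM in at least 2 libraries). Grm6 and Cabp5 passed it through their P5 libraries alone, so their tests are not given. Of the other 5 none was called, and 2, Grik1 and Prkca, reached an unadjusted p under 0.05, as did 22.6% of all genes. Cabp5 read 0.452, 2.78, 1.20 and 1.32 CPM in P2 control libraries 1 to 4 and 20.6, 38.5, 16.7 and 10.0 at P5, with no overlap. Grm6 read 0 in all 4 P2 libraries and 1.95, 18.0, 1.78 and 0.304 CPM at P5, at least 53.8-fold higher over the groups and at least 13.7-fold without P5 control 2, which held 100 of the 123 UMIs.

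Grik1 read 3.17, 11.5, 38.4 and 12.1 CPM in P2 neurogenic cells and 52.8, 73.8, 31.2 and 70.5 at P5, with 1 overlap, and did not pass (log2 fold change 1.77, edgeR adjusted p = 0.0743). It passed without P2 control 3 (edgeR adjusted p = 0.00673), and also with the replicate number as a block, without TMM factors and with no filter. Prkca, present at both ages (48.3 to 96.5 CPM at P2 and 82.9 to 120 at P5), was at 0.53 (edgeR adjusted p = 0.125) and passed without P2 control 1 (edgeR adjusted p = 0.0285). Of the 10 ON cascade partners, 5 passed the filter at both ages, and of these Gnb5 (log2 fold change 0.99, edgeR adjusted p = 0.00218) and Rgs7 (1.23, edgeR adjusted p = 0.0188) were higher at P5.

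In control rods 13.2% of 14786 genes passed (1071 or 7.24% higher and 878 or 5.94% lower), and 8 members passed the filter, Grm6 again through P5 alone. Of the other 7, Prkca and Gng13 were called, and 3 reached an unadjusted p under 0.05, as did 27.6% of all genes. Prkca read 80.8, 65.3, 27.5 and 17.3 CPM at P2 and 299, 274, 80.5 and 136 at P5, with a slight overlap between the highest P2 and the lowest P5 library (log2 fold change 2.00, SE 0.47, edgeR adjusted p = 0.00982). Gng13 was lower at P5, from 4.07, 8.45, 12.4 and 35.2 CPM to 4.48, 3.47, 1.44 and 0.753 (log2 fold change -2.66, SE 0.68, edgeR adjusted p = 0.0152). It did not pass without P2 control 4 (edgeR adjusted p = 0.0890), nor with the replicate number as a block. Grm6 went from 0 in 4 libraries to 3.41, 5.42, 0.423 and 0.646 CPM, at least 47.9-fold higher. Over whole libraries Grm6 stood at 73.6, 211, 81.9 and 116 CPM in P5 controls 1 to 4, so control 2 was highest there as in rods and neurogenic cells. At P5 a median of 0.784% of rods held a Grm6 UMI against 72.0% of bipolar cells; the part of free RNA in the rod and neurogenic values was not tested.

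**Figure D3:**
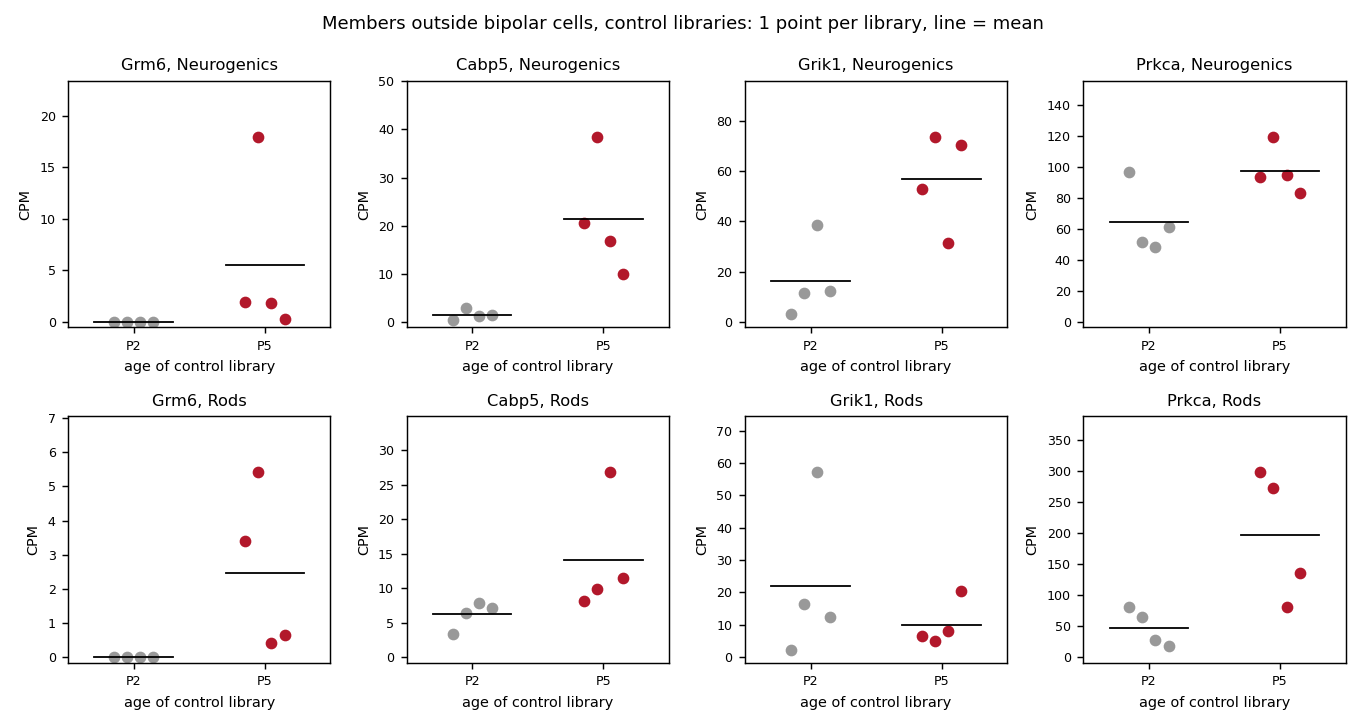
Grm6, Cabp5, Grik1 and Prkca in neurogenic cells and rods of control libraries at P2 (grey) and P5 (red), in CPM, with 1 point per library and a line at the mean. Grm6 lies at 0 in every P2 library, and Cabp5 in neurogenic cells lies above every P2 library in all 4 P5 libraries.

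Within P5 bipolar cells, detection of the members was compared after thinning each cell to 2000 UMIs, which kept 4297 of 4392 cells. Over the 10 libraries the median share of cells with a UMI was 48.4% for Grm6 (72.0% without thinning), 14.4% for Trpm1 (30.9%), 46.2% for Prkca (67.8%), 15.8% for Pcp2 (39.1%) and 46.4% for Grik1 (62.3%). Without P5 combination 1 the thinned medians were 52.6% for Grm6, 15.1% for Trpm1, 50.3% for Prkca, 17.3% for Pcp2 and 51.5% for Grik1. In rods, thinned alike, the medians were 0.208% for Grm6, 0.0833% for Trpm1, 29.1% for Prkca, 13.4% for Pcp2 and 1.47% for Grik1. For Pcp2 the bipolar share thus lay close to that in rods, and for Grm6, Trpm1 and Grik1 far above it.

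In single libraries the share with Grik1 ranged widely. Among controls 1 to 4 it was 25.2%, 35.7%, 69.5% and 57.8% (Wilson 95% interval 21.4 to 29.5 for the lowest and 66.5 to 72.3 for the highest), and it was 70.3% in P5 combination 2. The share with Grm6 was 44.3%, 64.1%, 42.4% and 52.6% in the controls and 28.0% (22.8 to 34.0) in P5 combination 2. In P5 combination 1 it was 0 of 53 cells, which allows a share of cells with a UMI of up to 5.66% at 3 cells (Wilson upper limit 6.76%), and 3.77% of cells held Grik1.

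Pairs of ON genes and pairs of an ON gene with Grik1 lay on different sides of 1 in a measure of co-detection in single cells. The measure is the number of cells with both genes over the number expected from the 2 shares within each library, summed over libraries. All 10 pairs of ON genes were above 1, from 1.27 for Grm6 with Prkca to 1.89 for Gng13 with Pcp2, and Grm6 with Trpm1 was at 1.36 (560 cells against 413 expected), above 1 in 9 of 9 libraries. Trpm1 with Grik1 was at 0.432 (134 against 310) and Pcp2 with Grik1 at 0.555, each above 1 in 0 of 9 libraries. Grm6 with Grik1 was nearer to 1, at 0.829 (864 cells against 1042), and above 1 in 1 of 9 libraries. The lowest and the highest ratio that a pair can reach depend on its 2 shares. The size of the ratio is therefore not comparable between pairs of unlike shares. No test was made of these ratios, since cells of 1 library are not replicates.

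Pairs with Neto1, Cabp5 or Gnao1 lay on both sides of 1. Of the 10 ON and OFF pairs, 8 were below 1. The lowest was Trpm1 with Neto1 (0.423), which rests on 5 cells against 11.8 expected. Pcp2 with Neto1 (0.577) rests on 7 cells against 12.1 expected. The other 2 paired Neto1 with Grm6 (1.04, 34 cells) and with Gng13 (1.14, 9 cells). Grik1 with Neto1 was at 1.48 (44 cells), above 1 in 7 of 8 libraries. Cabp5 went with Prkca (1.31) and Pcp2 (1.53) and was near independent of Grm6 (1.05) and Trpm1 (0.997). Gnao1 was above 1 with all 5 ON genes, from 1.15 to 1.24, and at 0.891 with Grik1.

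**Figure D4:**
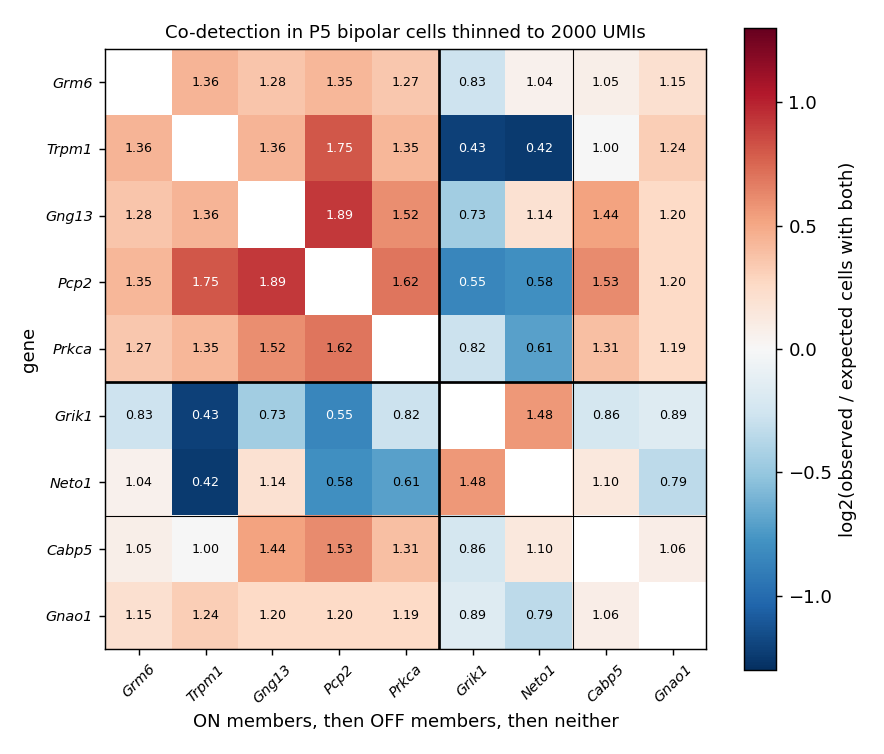
Observed over expected number of cells with both genes for each pair of members, in P5 bipolar cells thinned to 2000 UMIs; the printed value is the ratio and the colour its log2. The 5 ON genes form a block above 1, and their cells with Grik1 lie below 1, from 0.432 for Trpm1 to 0.829 for Grm6.

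When cells were sorted into classes by a UMI of Grm6 or Trpm1 (ON) and of Grik1 (OFF) after thinning, the 9 libraries other than P5 combination 1 held a median of 29.8% ON only, 28.0% OFF only, 21.4% both and 14.9% neither. ON only ranged from 6.91% in P5 combination 2 to 53.2% in P5 control 2, and both from 8.49% to 28.7%. Without thinning the median with both was 45.5%, so the size of that class depends on depth. In P5 combination 1, 96.2% of the 53 cells held neither. Doublets and free RNA can place UMIs of both kinds in 1 barcode, and their part in the class with both was not tested; Scrublet marked under 0.5% of all cells in 5 of the 10 P5 libraries, so its calls give no usable share of doublets here.

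**Figure D5:**
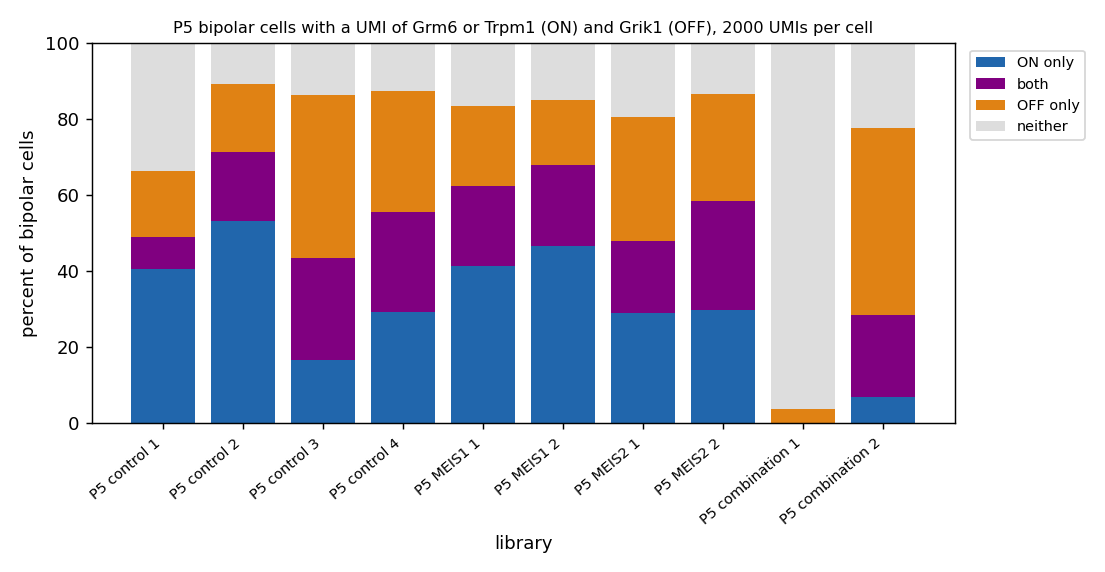
Percent of P5 bipolar cells per library with a UMI of Grm6 or Trpm1 (ON only), of Grik1 (OFF only), of both kinds or of neither, after thinning to 2000 UMIs. ON only is 53.2% in P5 control 2 and 6.91% in P5 combination 2, and P5 combination 1 holds 96.2% neither.

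Other genes were ranked by the same ratio. Among the 5944 genes seen in enough cells, the highest ratios with Grm6 were those of Sdk2 (1.40), Rnf152 (1.38) and Wscd2 (1.38), with Trpm1 those of Sdk1 (2.15), 4930555F03Rik (2.15) and Gm45323 (2.10), and with Prkca those of Cep112 (1.72), Il1rap (1.69) and Wscd2 (1.69). With Grik1 they were Plxna4 (1.79), Dscam (1.77) and Fam19a2 (1.67), and with Neto1 they were Nxph1 (4.73), Plxna4 (4.21) and Ly6h (3.63). The ratios with Neto1 rest on few cells, 17, 22 and 13 against 3.60, 5.23 and 3.58 expected. Sdk1, Sdk2 and Dscam encode adhesion proteins of retinal synaptic layers and Plxna4 a semaphorin receptor. In the lists, Gpr179, which holds regulators of the cascade at the synapse, was at 1.35 with Grm6 and 0.654 with Grik1, the upper end among the ON cascade partners with Grm6 (from 1.03) and the lower end with Grik1 (up to 1.07). Car8, a rod bipolar gene, was at 1.82 with Prkca and 0.499 with Grik1. Gsg1 was at 0.0307 with Grm6 and 2.26 with Grik1, and the other general bipolar genes ran from 0.693 to 1.18 with Grm6. The cone bipolar genes were divided: with Grik1, Tacr3 (1.27), Lhx3 (1.22), Erbb4 (1.12) and Nnat (1.06) were above 1, and Syt2 (0.944), Vsx1 (0.932) and Kcng4 (0.808) below.

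Across 57 sums of P5 library and cell type, the gene most correlated with a member in log2(CPM + 1) among 6883 genes was Vsx1 for Grm6 (Pearson r = 0.962), Gm12660 for Trpm1 (0.912), Gabrr1 for Gng13 (0.905), Tmem215 for Pcp2 (0.913) and Rpa1 for Prkca (0.818). It was Nrn1l for Cabp5 (0.958), Slc4a10 for Gnao1 (0.922) and Gm2516 for Neto1 (0.841). The second was Gabrr1 for both Grm6 (0.961) and Trpm1 (0.896); it encodes a GABA receptor subunit known from bipolar cells. Among members, Grm6 correlated most with Trpm1 (0.905) and Gng13 (0.891) and least with Pcp2 (0.570). Over the 51 sums without P5 combination 1 these 3 values were 0.923, 0.917 and 0.615, and Gabrr1 (0.967) stood above Vsx1 (0.960) for Grm6 and Vwc2l (0.840) above Gm2516 (0.834) for Neto1. The sums share libraries and depth, and most of the range is that between bipolar cells and other types, so these are descriptions with no test.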

How the data were processed

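Single-cell RNA-seq (10x Genomics 3′ chemistry, v3.1) was deposited by the authors as 1 table of UMI counts, whole numbers not normalized, with a table of annotated cells that also gives a mitochondrial percent per cell as deposited. Per the submitters' processing notes, Cell Ranger and Seurat 5 were used on mm10; other settings are not given in the sources used here. All 79009 cells were kept as deposited. Counts of the 20 libraries were summed per library and annotated type, for sums of 20 or more cells, and given as CPM of the sum. P5 bipolar sums were compared with edgeR 4.0.16 (quasi-likelihood test, TMM, its filter on low counts, R 4.3.3) over all genes with Benjamini-Hochberg adjustment. All P5 groups shared 1 fit, which also held the bipolar sums of P2 control 1 and P2 combination 1. DESeq2 1.42.0 was an alternative. The any-MEIS contrast is the mean of the 3 construct groups. Tested on simulated data for that contrast (14085 genes), the fit recovered 41.9% of 93 genes changed by a log2 fold change of 1 and 86.9% of 99 changed by 2, with 9 false calls. The adjustment is less strict where many genes change. The deposited data gave 1 called gene there, so these shares need not hold for the members.

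Detection and co-detection used cells thinned to 2000 UMIs with a fixed seed, counting cells with at least 1 UMI; co-detection with other genes used genes seen in 5 percent or more of these cells, and similar patterns used genes with a mean of 20 CPM or more in bipolar sums. Doublets were not removed; Scrublet (scanpy 1.11.5) marked 3256 cells, but under 0.5% of cells in 7 of 20 libraries, 5 of them at P5 (2 of 6292 cells in P5 control 1), where it is not relied on. Library depth ran from 2376875 to 141540352 UMIs. Named genes were the 9 members, called genes (up to 4 in each direction), listed genes with an unadjusted p under 0.05 (at most 6 a contrast), and the genes of highest co-detection (3) or correlation (2) per member. Members, lists and the contrasts were chosen with earlier results of these data known, and the contrasts in neurogenic cells and rods were added after the P2 bipolar cells were counted. The labels do not say that replicate numbers mark a shared batch. Correlations of the difference between replicates 1 and 2 were 0.28 to 0.49 for 4 pairs of P5 groups and 0.076 and 0.083 for the other 2, so some structure is shared by number; the main fit has no block, and the blocked fit is an alternative. Some genes that these rules or lists include are not reported here, and the general bipolar sums leave out 1 listed gene.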

Additional observations from a re-analysis of the deposited data

Results flagged for a closer look

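Of 54 sets of 4 control libraries checked for a library far from the other 3 (chance gives about 1 in 20), 4 stood out. In P5 bipolar cells Neto1 was at 16.8 CPM in control 2, and the nearest other control was at 8.32. In P5 neurogenic cells control 2 was also far above the others for Grm6, at 18.0 CPM with the nearest at 1.95, and for Gng13, at 16.2 CPM with the nearest at 2.17; this library also had the highest Grm6 level over all its cells, at 211 CPM. In P2 neurogenic cells Trpm1 was at 0.400 CPM in control 3, with the nearest at 0.0566, a level near that of 1 UMI.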

How the results depend on the processing

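The planned comparison of P5 with P2 control bipolar cells was not run, since 1 P2 control library held 20 or more such cells. The number of genes called in P5 bipolar cells was small and moved with the settings. For any MEIS construct (1 gene) it was 12 with DESeq2, 0 without TMM factors, 5 with no filter, 0 without the cells marked by Scrublet, 0 without the P5 replicate 1 libraries (whose mitochondrial shares were high) and 0 to 44 with 1 library left out. For MEIS1 (0 genes; 237 at an unadjusted p under 0.05) it was 1 with DESeq2, 1 with no filter, 1 with only the groups compared, 1 without the P5 replicate 1 libraries and 0 to 0 with 1 library left out. For MEIS2 (2 genes) it was 9 with DESeq2, 0 without the cells marked by Scrublet, 0 with only the groups compared, 0 without the P5 replicate 1 libraries and 0 to 2 with 1 library left out. For the combination (0 genes; 1686 at an unadjusted p under 0.05) it was 252 with DESeq2, 2 without TMM factors, 174 with no filter and 0 to 680 with 1 library left out (37 without P5 control 3, 680 without P5 combination 2). Between ages, 856 to 1540 genes were called in neurogenic cells and 1124 to 2315 in rods with 1 library left out (1124 without P5 control 2). The cause of these moves was not tested.

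With the replicate number as a block, 2 genes were called for any MEIS construct, 0 for MEIS1, 0 for MEIS2, 211 for the combination, 1520 in neurogenic cells and 2384 in rods. In bipolar cells no construct library shares a number with P5 controls 3 and 4, which thus add nothing to the blocked construct contrasts. Under the block Gng13 passed for any MEIS construct (-2.35, edgeR adjusted p = 0.0435), Trpm1, Gng13 and Pcp2 passed for the combination (edgeR adjusted p = 0.0486, 0.0112 and 0.0112), Grik1 passed in neurogenic cells (0.0325) and Gng13 did not in rods (0.0559); Grik1 changed sign to 0.63 for any MEIS construct, 0.52 for MEIS1 and 0.043 for the combination, and Trpm1 and Cabp5 to -0.26 and -0.13 for MEIS1.

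Members passed in other settings too. DESeq2 called Gng13 for any MEIS construct (adjusted p = 0.0120) and Gng13, Pcp2 and Gnao1 for the combination (4.52e-05, 0.0124 and 0.00372). With no filter Trpm1, Gng13, Pcp2, Prkca and Gnao1 passed for the combination (edgeR adjusted p = 0.0150 to 0.0429). These member calls stand beside the numbers of all genes called with DESeq2 and with no filter, given above. Grik1 in neurogenic cells passed without TMM factors (0.0416) and with no filter (0.0222). Without the P5 replicate 1 libraries Grik1 changed sign to 0.052 for any MEIS construct and 0.32 for the combination, Trpm1 to -0.18 for MEIS1 and Prkca to -0.057 for MEIS2. With 1 library left out, values that changed sign ranged as follows. For any MEIS construct Grik1 ran from -1.25 to 0.24 and Cabp5 from -0.59 to 0.14. For MEIS1 Pcp2 ran from -0.38 to 0.76, Trpm1 from -0.18 to 0.65 and Cabp5 from -0.040 to 0.69. For MEIS2 Grm6 ran from -0.27 to 0.088, Trpm1 from -0.72 to 0.11, Pcp2 from -0.70 to 0.43, Cabp5 from -0.41 to 0.32, Neto1 from -0.57 to 0.022 and Gnao1 from -0.030 to 0.21. For the combination Grik1 ran from -3.78 to 0.58, and in neurogenic cells Gng13 ran from -0.21 (without P5 control 2) to 2.80. All of these values are log2 fold changes. The share of bipolar cells with Grm6 was 72.0% without thinning against 48.4%, and Trpm1 with Grik1 was co-detected at 0.584 with 4000 UMIs per cell against 0.432. Of the member values and other single values, 743 kept their direction and side of the threshold, 28 changed sign, 25 came to pass the threshold, 2 no longer passed it and 15 without a test moved by more than the spread.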
